A study of Mus musculus with 12 samples.

Results

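The antioxidant and glutathione enzymes of the mouse heart were examined in left ventricular tissue of adult wild-type (WT) animals and of animals without Rpl3l (Rpl3l-/-, KO), a striated-muscle paralog of the ribosomal protein gene Rpl3. The members were chosen by a rule on gene symbols, set with earlier results of these data known. The rule took the Gpx, Prdx and Gst families, the Sod, Txn and Txnrd genes, and Cat, Gclc, Gclm, Gss, Gsr, Nqo1, Hmox1, Srxn1, Mgst1 and Mgst3. This gave 55 of the 21669 transcript names in the count tables, 1 transcript for each gene. Ribosome-protected fragments (footprints, RPF) and polyadenylated RNA were sequenced from cycloheximide-treated lysates, in 3 libraries for each genotype and assay, 12 libraries in 4 groups. No treatment of the animals is named, and the strain, sex, exact age and the design of the Rpl3l allele are not given in the sources used here. The series calls the triplicates biological, and p-values measure the spread between these libraries only.

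Superoxide, which leaks from the respiratory chain, is converted to hydrogen peroxide by superoxide dismutases, with Sod1 in the cytosol, Sod2 in the mitochondrial matrix and Sod3 outside the cell. The peroxide is removed by catalase, by glutathione peroxidases, which spend reduced glutathione, and by peroxiredoxins, most of which are kept reduced by thioredoxin and thioredoxin reductase. Glutathione is made by glutamate-cysteine ligase (Gclc and its modifier Gclm) and glutathione synthetase (Gss), is regenerated by glutathione reductase (Gsr), and is joined to reactive electrophiles by the glutathione transferases. Many of these genes are induced through antioxidant response elements bound by the factor Nrf2. The heart, rich in mitochondria, relies on these systems continuously.

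Of the members, 7 carry selenocysteine, an amino acid inserted at a UGA codon that would otherwise end translation, so their footprints come from ribosomes that meet a stop codon inside the reading frame. These codons are shown because they separate the catalytic design of the enzymes and because ribosomes must decode them here. The windows below run 5′ to 3′ in the DNA alphabet on the coding strand, from GENCODE M21 transcripts (GRCm38), with the selenocysteine codon in capitals.
Gpx1: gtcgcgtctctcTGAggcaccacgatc
Gpx2: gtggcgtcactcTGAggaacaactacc
Gpx3: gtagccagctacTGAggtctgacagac
Gpx4: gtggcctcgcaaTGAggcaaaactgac
Txnrd1: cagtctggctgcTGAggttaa
Txnrd2: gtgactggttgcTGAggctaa
Txnrd3: cagaaaggctgcTGAggctag
The codon lies early in the peroxidases, at codon 47 of 202 in Gpx1 and codon 73 of 198 in Gpx4, counting the start codon as 1 and including the stop. In the reductases 1 codon separates it from the stop, as at codon 526 of 528 in Txnrd2, so a ribosome has read nearly the whole frame before it. The peroxidases Gpx5, Gpx6, Gpx7 and Gpx8 have a cysteine codon at the aligned place, shown in capitals for the 2 that were measured in heart.
Gpx7: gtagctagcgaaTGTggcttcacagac
Gpx8: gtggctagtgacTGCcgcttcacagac
The log2 ratio of footprint CPM to RNA CPM in WT had a median of 2.08 over the 6 selenocysteine members measured in both assays, with values from -1.04 to 5.12, beside a median of 2.06 over the other 34 members.

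RNA libraries held between 6635242 and 8459004 counts, of which 49.8% to 58.2% came from the mitochondrial genome, and footprint libraries held between 3827862 and 7474602. Levels are in CPM, counts relative to the TMM-scaled library size, and 3 counts, the detection floor used here, corresponded to 0.355 to 0.452 CPM in RNA and 0.401 to 0.784 CPM in footprints. The deleted gene checked the labels: Rpl3l RNA had 2987, 2726 and 3329 counts in WT and 276, 310 and 442 in KO, and its footprints 937, 985 and 1108 in WT and 65, 30 and 61 in KO. The first principal component of RNA set WT 3, KO 1 and KO 3 apart from WT 1, WT 2 and KO 2, and that of footprints set WT 1 apart. Libraries of both genotypes stood on each side of the RNA split.

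Summed over the enzymes, WT libraries had 3359 ± 137 CPM of RNA and KO libraries 3259 ± 113 (SD, n = 3). The same sum in footprints was 6653 ± 252 CPM for WT and 6721 ± 145 for KO. Of the 55 genes, 41 passed the filter on low counts in RNA and 45 in footprints, 40 of them in both. The 9 that passed in neither were Gpx2, Gpx5, Gpx6, Gsta1, Gsta2, Gstm3, Gstp3, Gstt4 and Prdx6b, with at most 7 counts in any library. Gpx5 and Gpx6, peroxidases of the epididymis and the olfactory epithelium, had no count in any of the 12 libraries. Footprints alone passed for Gstm4, Gstm6, Gstt3, Hmox1 and Srxn1, and RNA alone for Gsto2.

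No enzyme gene passed the test between the genotypes. edgeR's quasi-likelihood test with Benjamini-Hochberg adjustment called 0 of 41 in RNA, 0 of 45 in footprints and 0 of 40 in translational efficiency (TE), the change in footprints relative to RNA. Over all genes tested the called share was 0.0119% in RNA, 0.00897% in footprints, in both cases Rpl3l alone, and 0% in TE, and DESeq2 also called 0 members in each. At an unadjusted p below 0.05 stood Gpx3 and Gsr in RNA (2 of 41, against 2.54% of all genes), Txnrd2 in footprints (1 of 45, against 5.96%) and Gsr in TE (1 of 40, against 3.73%). The lowest adjusted p of a member was 0.999 in RNA and 0.834 in footprints by edgeR's quasi-likelihood test. Groups that did not overlap were about as frequent among the members as among all genes. In footprints KO was lower in 3 of 45, Gpx7, Gstt2 and Txnrd2, against 5.77% of all genes, and higher in 1 of 45, Txnrd3, against 6.27%. In RNA KO was lower in 2 of 41, Gstk1 and Txnrd2, against 3.19%, and higher in 1 of 41, Gsr, against 4.14%.

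The median log2 fold change, KO against WT, was 0.01 over the members in RNA, beside -0.01 over all genes tested, and 0.02 in footprints, beside 0.00141 over all genes. In RNA 21 members were higher and 20 lower (higher in 49.1% of all genes), and 30 of 41 lay within 0.25 of no difference on the log2 scale. In footprints 26 were higher and 19 lower (higher in 50.2% of all genes), and 32 of 45 lay within 0.25. In TE 22 of 40 were higher, against 51.7% of all genes, with a median of 0.02 beside 0.01. The changes in RNA and in footprints shared their sign in 23 of 40 members, with a Pearson correlation of 0.05 across genes, a description only, since these genes share the same libraries.

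**Figure D1:**
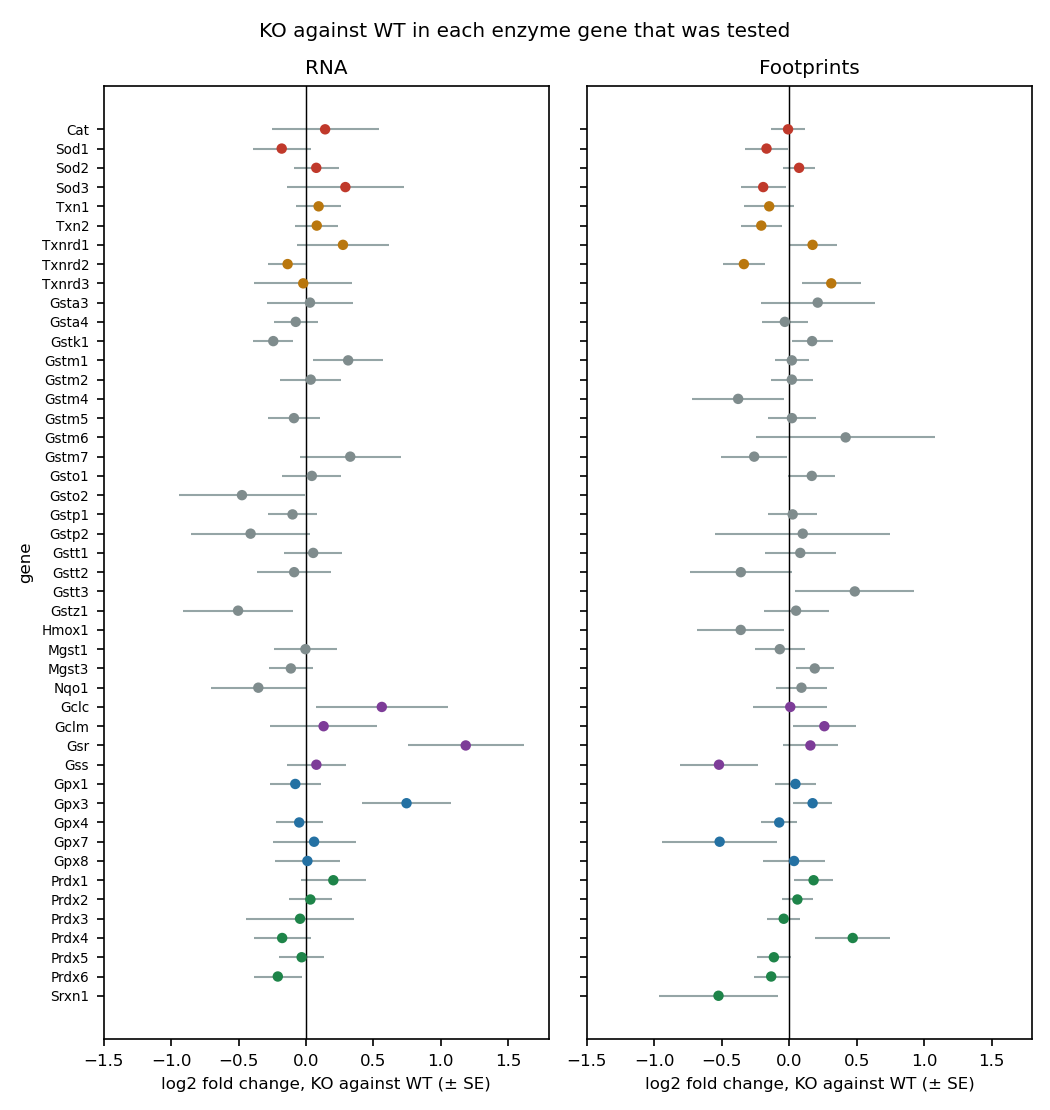
Log2 fold change of each tested enzyme gene, KO against WT, in RNA (left) and footprints (right); points are fitted values, bars are 1 SE, and colours mark dismutases and catalase (red), thioredoxin system (orange), transferases with Nqo1 and Hmox1 (grey), glutathione synthesis and reduction (purple), glutathione peroxidases (blue) and peroxiredoxin system (green). Most points lie within 0.25 of 0, and the RNA change of Gsr, 1.18, is the farthest from it.

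Sod2, the manganese enzyme of the mitochondrial matrix (chromosome 17, 13007817 to 13020134, GRCm38), had the highest footprint density of the members. Its RNA was 227, 231 and 278 CPM in WT libraries 1 to 3 and 278, 237 and 261 CPM in KO libraries 1 to 3. Footprints stood at 988, 859 and 958 CPM in WT and at 1022, 1040.1 and 889 CPM in KO. The groups overlapped in both assays, with log2 fold changes of 0.08 (SE 0.17) and 0.07 (SE 0.12). Sod1, the copper-zinc enzyme of the cytosol (chromosome 16, 90220754 to 90226329), had 701, 688 and 454 CPM of RNA in WT and 482, 636 and 509 in KO. Sod1 footprints were 231, 334 and 351 CPM in WT and 296, 267 and 252 in KO. The WT libraries spanned the KO values in both assays, and the log2 fold changes were -0.18 (SE 0.21) in RNA and -0.17 (SE 0.16) in footprints. Sod3, the extracellular enzyme, was read mainly through footprints, at 74.5, 92.5 and 89.7 CPM in WT and 86.1, 61.3 and 76.9 in KO. Its RNA lay between 1.56 and 3.35 CPM in WT and between 1.35 and 3.69 in KO, and the log2 fold changes were 0.29 (SE 0.43) in RNA and -0.19 (SE 0.17) in footprints. The dismutases together made up 19.9% of the members' footprints in WT and 19.8% in KO.

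Catalase, the peroxisomal enzyme that breaks down hydrogen peroxide without a reductant, contributed 8.09% of the members' footprints in WT but 0.298% of their RNA. Cat RNA was 8.17, 5.45 and 16.1 CPM in WT and 15.4, 6.59 and 11.2 in KO, while its footprints were 487, 603 and 523 CPM in WT and 511, 561 and 531 in KO. The footprints varied little among all 6 libraries, and the 95% interval of the KO to WT fold ran from 0.829 to 1.19. The RNA interval, 0.598 to 2.03, was wider.

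Among the selenocysteine peroxidases Gpx4, which reduces lipid hydroperoxides in membranes, was the most abundant. Gpx4 RNA measured 734, 653 and 593 CPM in WT and 652, 703 and 557 in KO, and its footprints 429, 432 and 517 CPM in WT and 495, 408 and 405 in KO. Both groups overlapped, with log2 fold changes of -0.05 (SE 0.18) and -0.07 (SE 0.13). Gpx1, the main soluble peroxidase, had 119, 167 and 157 CPM of RNA in WT and 142, 156 and 121 in KO. Footprints of Gpx1 were 68.9, 75.4 and 71.9 CPM in WT and 69.9, 80.8 and 72.3 in KO, overlapping values with a log2 fold change of 0.05 (SE 0.15), beside -0.08 (SE 0.19) in RNA. Gpx3, a secreted peroxidase best known from plasma, had RNA of 16.2, 19.1 and 36.8 CPM in WT and 38.4, 27.4 and 55.3 in KO. WT 3 lay among the KO libraries, so the groups overlapped, and the log2 fold change of 0.75 (SE 0.33) had an unadjusted p of 0.048 and an adjusted p of 0.999 by edgeR's quasi-likelihood test. Gpx3 footprints were 175, 201 and 168 CPM in WT and 175, 214 and 224 in KO, with a log2 fold change of 0.17 (SE 0.14). The libraries high in Gpx3 RNA, WT 3, KO 1 and KO 3, are those on 1 side of the RNA split, whose part in the difference was not tested beyond a fit with a factor for it. In that fit, chosen after the data were seen, the log2 fold change was 0.48 (SE 0.15). By edgeR's quasi-likelihood test its unadjusted p was 0.0033 and its adjusted p 0.467.

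The cysteine peroxidases Gpx7 and Gpx8 work in the endoplasmic reticulum, where they pass oxidising power to protein folding. Gpx7 footprints were 7.61, 9.49 and 7.40 CPM in WT and 3.23, 7.04 and 6.92 in KO. The groups did not overlap, but KO 1 set most of the difference: the log2 fold change was -0.52 (SE 0.43) with all libraries and -0.22 without KO 1. Gpx7 RNA was 2.44 to 4.40 CPM in WT and 2.70 to 4.05 in KO, with a log2 fold change of 0.06 (SE 0.31). Gpx8 footprints had a log2 fold change of 0.04 (SE 0.23).

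Peroxiredoxins took the largest share of the members' footprints, 30.4% in WT and 30.7% in KO with their reductase Srxn1. Prdx2, an abundant cytosolic form also known from red cells, had RNA of 229.5, 214 and 235 CPM in WT and 242, 214 and 237 in KO. Prdx2 footprints were 539.8, 569 and 585 CPM in WT and 591, 610.1 and 564 in KO. The log2 fold changes were 0.03 (SE 0.16) and 0.06 (SE 0.11), and the groups overlapped. The summed erythroid markers ranged from 1928 to 4317 CPM of RNA in WT and from 1263 to 5271 in KO. Prdx2 RNA ranged from 214 to 242 CPM in the same libraries. In footprints the erythroid markers ranged from 353 to 1509 CPM in WT and from 663 to 1577 in KO. Erythroid and Prdx2 footprints were both lowest in WT 1. The part of red cells in the Prdx2 values was not tested. Prdx1, the other main cytosolic 2-cysteine form, had 64.4, 63.8 and 99.8 CPM of RNA in WT and 105, 64.3 and 93.2 in KO. Prdx1 footprints were 545, 387 and 497 CPM in WT and 523, 604 and 491 in KO, with log2 fold changes of 0.20 (SE 0.24) in RNA and 0.18 (SE 0.14) in footprints. These libraries overlapped, and the 3 high RNA libraries of Prdx1 were again WT 3, KO 1 and KO 3.

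The mitochondrial peroxiredoxins Prdx3 and Prdx5 differed from each other in how RNA and footprints compared. Prdx3, the matrix form served by Txn2 and Txnrd2, had RNA of 11.0, 14.4 and 30.9 CPM in WT and 25.3, 10.0 and 19.7 in KO, and footprints of 406, 339 and 368 CPM in WT and 351, 368 and 363 in KO. Prdx5, found in mitochondria, peroxisomes and cytosol, had RNA of 695, 633 and 597 CPM in WT and 619, 681 and 583 in KO, and footprints of 365, 324 and 398 CPM in WT and 338, 320.1 and 347 in KO. Per kilobase, WT RNA of Prdx5 was 40.0 times that of Prdx3, and its footprints 1.19 times. The RNA ratio was 61.1 without WT 3, the WT library with the most Prdx3 RNA. Neither gene separated the genotypes, with footprint log2 fold changes of -0.04 (SE 0.12) for Prdx3 and -0.11 (SE 0.13) for Prdx5, and RNA log2 fold changes of -0.04 (SE 0.40) and -0.03 (SE 0.16). Prdx6, the 1-cysteine form that also has phospholipase activity, had RNA of 43.9, 44.9 and 51.9 CPM in WT and 41.5, 33.4 and 46.7 in KO. Prdx6 footprints were 219, 206 and 223 CPM in WT and 209, 179 and 202 in KO, and the log2 fold changes were -0.21 (SE 0.18) and -0.13 (SE 0.13). Prdx4, the form of the secretory pathway, had RNA of 43.7, 34.9 and 24.9 CPM in WT and 27.8, 31.6 and 32.0 in KO, and footprints of 15.6, 22.7 and 37.9 CPM in WT and 29.4, 33.9 and 42.8 in KO. Its RNA was lower and its footprints higher in KO by the fit, -0.18 (SE 0.21) and 0.47 (SE 0.28), and the groups overlapped in both assays. Srxn1, sulfiredoxin, which rescues over-oxidised peroxiredoxins, lay between 3.56 and 11.3 CPM in footprints.

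Of the tested members, only the mitochondrial thioredoxin reductase Txnrd2 had its WT and KO libraries apart, without overlap, in both RNA and footprints. How many of all genes were apart in both assays was not counted, so this does not set Txnrd2 apart from other genes. Txnrd2 (chromosome 16, 18426445 to 18479070) had footprints of 78.4, 78.5 and 72.1 CPM in WT and 62.9, 65.1 and 53.0 in KO. Its RNA was 32.0, 30.7 and 30.0 CPM in WT and 26.7, 29.2 and 28.2 in KO. All KO libraries lay below all WT libraries in both assays. The footprint log2 fold change was -0.34 (SE 0.16; 95% interval of the fold 0.629 to 0.997), with an unadjusted p of 0.047 and an adjusted p of 0.834 by edgeR's quasi-likelihood test, and the RNA log2 fold change was -0.14 (SE 0.15). Leaving out each footprint library in turn gave unadjusted p-values between 0.051 and 0.19 by the same edgeR test, and the footprint log2 fold change then lay between -0.39 and -0.25. In bulk tissue, fewer cells of a type and less RNA per cell cannot be told apart. Txnrd3, best known from testis, went the other way in footprints, with 18.9, 21.3 and 20.7 CPM in WT and 29.9, 22.7 and 22.8 in KO. The groups did not overlap, and the log2 fold change of 0.31 (SE 0.22) fell to 0.17 without KO 1. RNA of Txnrd3 was 2.29 to 3.56 CPM in WT and 1.50 to 3.84 in KO, with a log2 fold change of -0.02 (SE 0.36). Txnrd1, the cytosolic reductase, had a footprint log2 fold change of 0.17 (SE 0.18). Whether the 3 reductases differed from each other in their change was not tested.

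The thioredoxins themselves overlapped between the groups. Txn1, the cytosolic form, had RNA of 47.0, 47.9 and 47.4 CPM in WT and 57.6, 43.3 and 50.9 in KO, and footprints of 130.4, 132 and 155 CPM in WT and 169, 104 and 103 in KO. Its log2 fold changes were 0.09 (SE 0.16) in RNA and -0.15 (SE 0.19) in footprints. Txn2, the mitochondrial form, had RNA of 24.5, 27.3 and 30.2 CPM in WT and 31.8, 27.3 and 27.7 in KO, and footprints of 149, 174 and 176 CPM in WT and 169, 123 and 139 in KO. Its log2 fold changes were 0.08 (SE 0.16) and -0.21 (SE 0.15). Over the 6 members placed mainly in mitochondria, Sod2, Prdx3, Prdx5, Txn2, Txnrd2 and Gstk1, the median footprint log2 fold change was -0.08, with 4 lower and 2 higher.

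Glutathione synthesis and reduction were thinly covered in RNA. Gsr, which regenerates reduced glutathione with NADPH, had 3, 6 and 12 RNA counts in WT and 15, 10 and 21 in KO, or 0.43, 0.779 and 1.26 CPM against 2.22, 1.50 and 2.13. All KO libraries were above all WT libraries, and the log2 fold change of 1.18 (SE 0.43) had an unadjusted p of 0.02 and an adjusted p of 0.999 by edgeR's quasi-likelihood test. Footprints of Gsr, far better covered, were 37.6, 25.0 and 35.5 CPM in WT and 39.6, 32.1 and 38.1 in KO, with a log2 fold change of 0.16 (SE 0.20). The TE difference of -1.01 (SE 0.45, unadjusted p of 0.038) therefore rested on the RNA side, where WT 1 was at the floor of 3 counts, and was -0.62 when WT 1 was left out. Gclc and Gclm, whose products form the rate-limiting ligase, had footprint log2 fold changes of 0.01 (SE 0.28) and 0.26 (SE 0.24), and Gss one of -0.52 (SE 0.29). RNA was higher in KO by the fit in 4 of 4 of these genes, where 49.1% of all genes were higher. With a factor for the RNA split, Gsr was at 0.97, Gclc at 0.57, Gss at 0.00265 and Gclm at -0.00412.

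Of the glutathione transferases, Mgst3, a membrane enzyme with peroxidase activity, and Gstm1, a cytosolic mu-class enzyme, had the highest footprint densities. Mgst3 RNA was 175, 140.4 and 165 CPM in WT and 153, 148 and 143 in KO, and its footprints 289, 227 and 275 CPM in WT and 260.5, 320.4 and 322 in KO. Its log2 fold changes were -0.11 (SE 0.16) and 0.19 (SE 0.14), and the groups overlapped. Gstm1 RNA was 14.2, 13.8 and 25.0 CPM in WT and 26.4, 17.7 and 22.1 in KO, and its footprints 290.2, 324 and 292 CPM in WT and 277, 314 and 328 in KO. The log2 fold changes of Gstm1 were 0.31 (SE 0.26) in RNA and 0.02 (SE 0.13) in footprints. Of the 28-base windows of the Gstm1 coding sequence, 34.1% also occur in the whole transcript of another gene of the series, so its counts are uncertain. Gstp1 and Gstp2 share 78.7% of their coding windows with each other, and 11 members had over 10% of them shared. Windows from the members' own untranslated regions were not compared.

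Gstk1, the kappa-class enzyme of mitochondria and peroxisomes, had the least variable RNA of the members described. Its RNA was 61.2, 61.3 and 61.5 CPM in WT and 51.3, 52.4 and 51.8 in KO. The groups were separated by far more than their spread, yet the shared estimate of variance across genes gave a log2 fold change of -0.24 (SE 0.15) that did not pass the test, with an unadjusted p of 0.13. Gstk1 footprints went the other way, 91.7, 99.4 and 113 CPM in WT and 120.5, 98.4 and 123 in KO, with a log2 fold change of 0.17 (SE 0.15) and overlapping groups. Gsta4, which detoxifies products of lipid peroxidation, had RNA of 42.4, 44.0 and 49.5 CPM in WT and 44.0, 37.9 and 47.0 in KO, and footprints of 82.3, 108 and 89.0 CPM in WT and 99.0, 101 and 71.7 in KO. Gsta4 overlapped in both assays, with log2 fold changes of -0.08 (SE 0.16) and -0.03 (SE 0.17). Gstm5 RNA was 65.7, 41.6 and 52.0 CPM in WT and 47.4, 47.0 and 55.0 in KO, and its footprints 65.0, 61.4 and 52.9 CPM in WT and 51.6, 74.0 and 56.0 in KO. These values of Gstm5 also overlapped, with log2 fold changes of -0.09 (SE 0.20) and 0.02 (SE 0.18).

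Gsto1, the omega-class enzyme, had RNA of 33.0, 31.7 and 47.8 CPM in WT and 43.0, 29.8 and 43.1 in KO, and footprints of 135, 177 and 231 CPM in WT and 208, 184 and 218 in KO. Its groups overlapped, with log2 fold changes of 0.04 (SE 0.22) and 0.17 (SE 0.17). Gstp1, the pi-class enzyme, had RNA of 36.8, 35.2 and 32.3 CPM in WT and 39.4, 26.4 and 31.5 in KO, and footprints of 33.7, 32.4 and 38.5 CPM in WT and 36.0, 32.5 and 38.1 in KO. Its log2 fold changes were -0.10 (SE 0.18) and 0.03 (SE 0.18). Gstt2, a theta-class enzyme, had footprints of 6.99, 8.43 and 8.46 CPM in WT and 6.87, 6.01 and 5.66 in KO, RNA of 10.5 to 14.2 CPM in WT and 8.40 to 17.7 in KO, and log2 fold changes of -0.36 (SE 0.38) in footprints and -0.09 (SE 0.28) in RNA. Gsto2, tested in RNA only, with -0.47 (SE 0.47), had low footprints of 2.67, 2.11 and 1.69 CPM in WT and 0.539, 1.03 and 0.629 in KO. The Gsto2 footprint groups did not overlap, but its counts did not pass the filter for a test. The same held for Gstm3, at 2, 4 and 1 footprint counts in WT and 1, 1 and 0 in KO, or 0.411, 1.05 and 0.211 CPM against 0.135, 0.147 and 0. Nqo1 and Hmox1, the quinone and heme enzymes often used as readouts of Nrf2, had footprint log2 fold changes of 0.09 (SE 0.19) and -0.36 (SE 0.32).

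**Figure D2:**
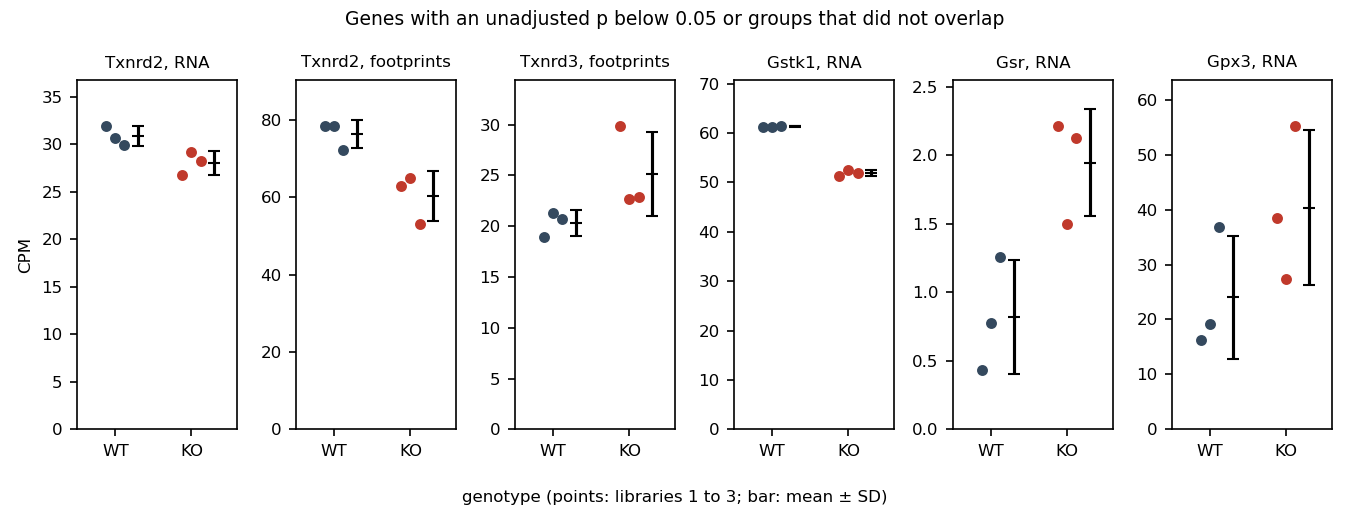
CPM in each library, WT and KO, for Txnrd2 in RNA and footprints, Txnrd3 in footprints, and Gstk1, Gsr and Gpx3 in RNA; points are libraries 1 to 3 of each genotype, bars give the mean and SD, and each axis starts at 0. KO points lie below WT points for Txnrd2 and Gstk1 and above them for Txnrd3 and Gsr, and the Gpx3 points overlap.

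Which defences the ventricle carries was compared per length, since longer transcripts collect more counts. In WT footprints per kilobase of coding sequence, Sod2 had 1398 ± 101 CPM, followed by Prdx2 with 946 ± 38.3, Prdx1 with 794 ± 135, Gpx4 with 773 ± 83.8 and Sod1 with 657 ± 139 (SD, n = 3). Sod2 and Prdx2 were farther apart than their spread, while Prdx1, Gpx4 and Sod1 were not. In RNA per kilobase of transcript the order was Sod1 with 959 ± 217 CPM, Gpx4 with 688 ± 74.1 and Prdx5 with 508 ± 39.4, and then, well below, Mgst3 with 146 ± 16.2, Prdx2 with 140.3 ± 6.79 and Gpx1 with 138 ± 23.8, which did not differ beyond their spread. Across the 40 members measured in both assays the Spearman correlation of these levels was 0.71, beside 0.52 over 7981 genes, as a description of genes that share their libraries. The region the authors counted is not stated, so a level per kilobase assumes whole transcripts in RNA and coding sequence in footprints.

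**Figure D3:**
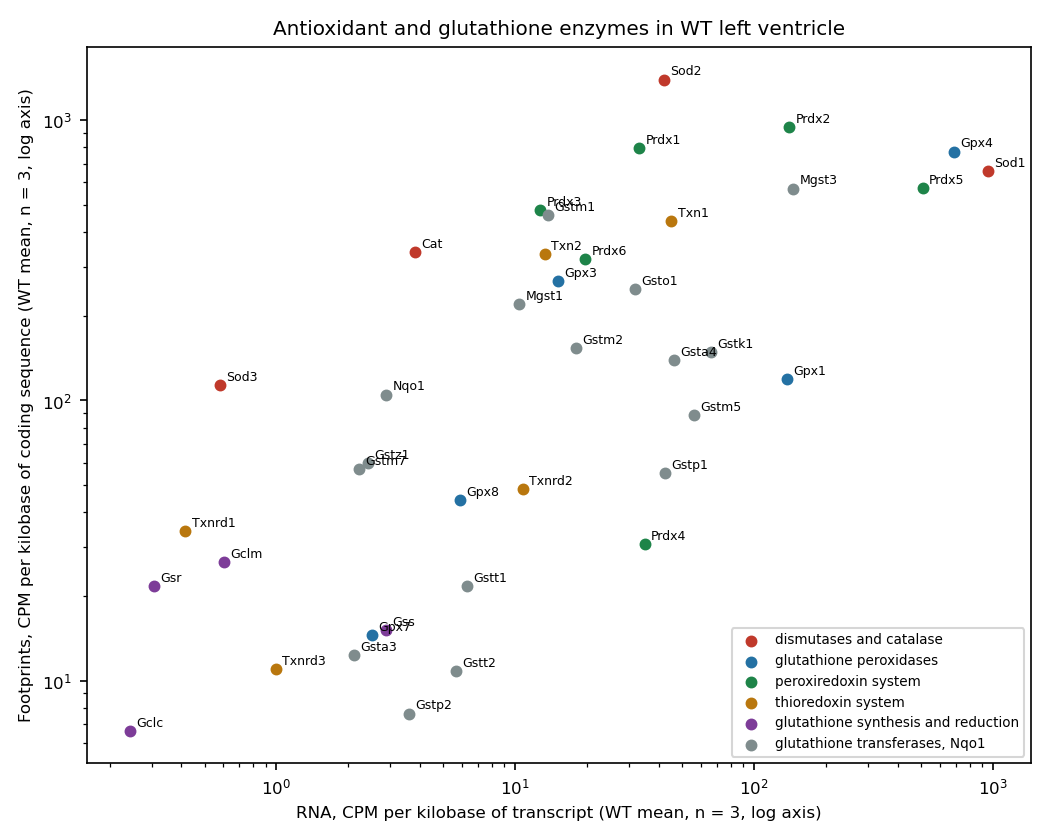
WT level of each of the 40 enzyme genes measured in both assays: RNA in CPM per kilobase of transcript on the horizontal axis and footprints in CPM per kilobase of coding sequence on the vertical axis, both logarithmic, means of 3 libraries, coloured by role. Sod2 is highest in footprints, Sod1 highest in RNA, and Cat and Sod3 lie far to the left for their footprint level.

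Some enzymes that act on the same substrate ranked in opposite order in the 2 assays. Per kilobase in WT, Sod1 RNA was 22.9 times Sod2 RNA, whereas Sod2 footprints were 2.13 times Sod1 footprints. Most of the Sod2 transcript is 3′ UTR, and with RNA per kilobase of coding sequence Sod1 was 3.60 times Sod2. Gpx1 RNA was 36.3 times Cat RNA, whereas Cat footprints were 2.85 times Gpx1 footprints. The reductases Txnrd1 and Txnrd2 ranked alike in both assays, with Txnrd2 at 25.8 times Txnrd1 in RNA and 1.41 times in footprints. Txnrd3 was left out of this comparison.

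The footprint to RNA ratio of each enzyme differed by up to 285-fold between members with both values per kilobase, and by up to 111-fold in plain CPM. On the log2 scale the ratio per kilobase was highest for Sod3 at 7.61, Cat at 6.48, Txnrd1 at 6.36 and Gsr at 6.15, and lowest for Sod1 at -0.54, Gpx1 at -0.21, Prdx4 at -0.18, and Gpx4 and Prdx5 at 0.17 each. The median over all genes was 2.65 and over the members 3.04. Of the 40 members, 15 lay above the upper quartile of all genes and 10 below the lower quartile. Across the members the Pearson correlation of the ratio between WT and KO was 0.99. It follows the span between genes and does not show that each ratio was unchanged. The largest difference between the genotypes was 1.08 in log2, for Gsr, whose RNA counts were low. Prdx4 was at -0.18 in WT and 0.48 in KO. In plain CPM the order at the top was Cat at 5.76, Gsr at 5.32, Sod3 at 5.31 and Txnrd1 at 5.12, and Gpx1 was lowest at -1.04. The ratio compares 2 kinds of library and is read only relative to other genes.

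Transcript length moved with this ratio. With both values in plain CPM, not divided by any length, its Spearman correlation with transcript length was 0.63 over the 40 members and 0.31 over 7990 genes. This ratio is not free of length, since footprint counts can grow with coding length and RNA counts with transcript length. The correlation with length was -0.41 for RNA and 0.01 for footprints over the members. Of the members with transcripts shorter than 1100 bases, among them Sod1, Gpx1 and Gpx4, 2 of 14 were above the all-gene median of 1.71, as were 12.7% of all genes of that length. Of those of 2000 bases or longer, among them Cat, Gsr and Txnrd1, 11 of 13 were above it, beside 58.4% of all genes. Between these lengths it was 9 of 13, beside 39.2%. These correlations are descriptions across genes, and the part of length in the ratio was not tested.

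**Figure D4:**
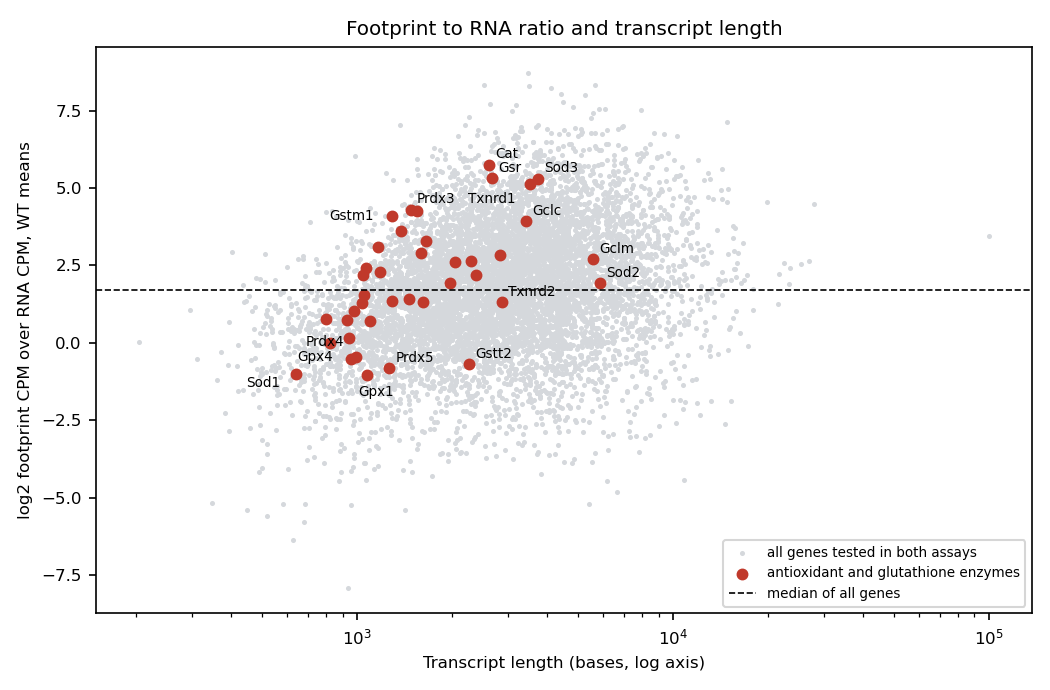
Log2 ratio of footprint CPM to RNA CPM in WT against transcript length in bases (log axis), for all genes tested in both assays (grey) and the 40 enzyme genes (red); the dashed line is the median of all genes, 1.71. Short transcripts such as Sod1, Gpx1, Gpx4 and Prdx4 lie below the line, and Cat, Gsr, Sod3 and Txnrd1 lie highest.

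RNA of many members followed the split of the libraries rather than genotype. In 15 of 41, WT 3, KO 1 and KO 3 were all higher than WT 1, WT 2 and KO 2, against 17.8% of all genes, and in 3 of 41 they were all lower, against 18.3%. The 15 included Cat, Prdx1, Prdx2, Prdx3, Sod2, Sod3, Gpx3, Gpx7, Gpx8, Gstm1 and Txn2, and the 3 were Sod1, Gpx4 and Prdx5, the members with the most RNA. Prdx3 had a mean of 25.3 CPM in the first 3 libraries and 11.8 in the others, and Cat 14.2 and 6.74. Sod1 went the other way, with 482 and 675 CPM. The sets were defined from the component scores of all other genes, so no test is given, and no label names what separates these libraries. With a factor for the split, edgeR's quasi-likelihood test still called 0 of 41 members, with 7 at an unadjusted p below 0.05, Gpx3, Prdx3, Prdx6, Gsr, Gstp2, Gstk1 and Nqo1, while 6.04% of all genes were at that level in the same fit, against 2.54% without the factor. By that fit Gpx3 and Gsr were higher in KO, with log2 fold changes of 0.48 and 0.97. Lower in KO were Prdx3 at -0.42 (SE 0.16), Prdx6 at -0.31 (SE 0.12), Gstp2 at -0.78 (SE 0.35), Gstk1 at -0.24 (SE 0.11) and Nqo1 at -0.59 (SE 0.28).

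**Figure D5:**
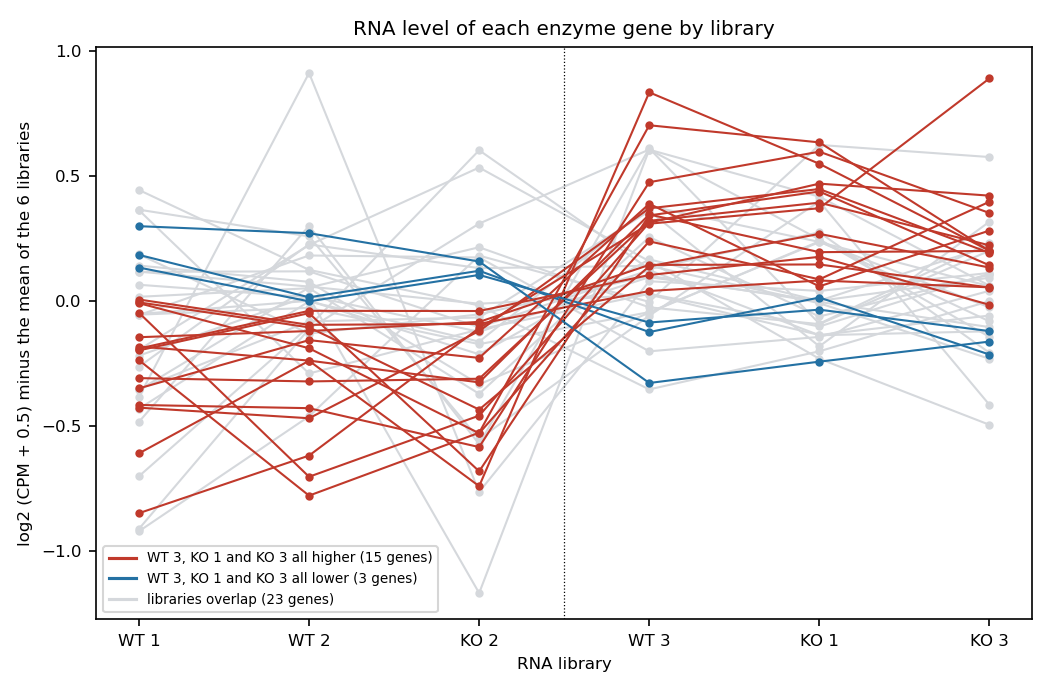
RNA level of each of the 41 tested enzyme genes in the 6 RNA libraries, as log2 (CPM + 0.5) minus the gene's mean; WT 1, WT 2 and KO 2 stand left of the dotted line and WT 3, KO 1 and KO 3 right of it. Red lines mark the 15 genes with all right-hand libraries higher, blue lines the 3 with all of them lower, and grey lines the other 23.

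Promoters were searched for the core of the antioxidant response element because induction through Nrf2 is the best known shared control of these genes. The motif TGACNNNGC was looked for on both strands from 250 bases before to 50 bases after the transcription start in RefSeq promoters (GRCm38.p6), overlaps with other motifs disregarded. It was found in 9 of the 47 members with a promoter entry (19.15%), beside 13.99% of 27025 genes: Gclm, Gsta3, Gstm5, Gstm7, Mgst1, Prdx1, Sod1, Srxn1 and Txnrd1. The sites of 4 known Nrf2 targets are shown on the plus strand of the genome, on which these genes lie, with the motif, here in reverse complement, in capitals.
Gclm (chr3:122245414-122245440): ctcccgggcGCACCGTCAactctcacg
Prdx1 (chr4:116685457-116685483): agggaaagcGCTGAGTCAtcccccgta
Srxn1 (chr2:152105543-152105569): cagtgggcaGCTAGGTCAgagtgagac
Txnrd1 (chr10:82859105-82859131): tggatttttGCTTTGTCAttctgacac
These genes did not move together: of the 9 with the motif, footprints were higher in KO by the fit in 5 and lower in 4, and the fitted values spanned -0.52 to 0.26 in log2. In RNA 5 of 8 tested were higher and 3 lower, and none had an unadjusted p below 0.05 in either assay by edgeR's quasi-likelihood test. Footprint log2 fold changes were 0.26 for Gclm, 0.18 for Prdx1, -0.52 for Srxn1 and 0.17 for Txnrd1. A match of these letters is not evidence of binding. Promoter starts can differ from those of the counted transcripts. The Txnrd1 motif is at offset -92 from its RefSeq start, while the counted Txnrd1 transcript begins farther downstream, at chr10:82860301.

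Genes around these enzymes were read from 7 lists: Nrf2 control, NADPH supply, cysteine and glutathione turnover, glutaredoxins with glyoxalases and repair enzymes, metal and iron storage, other selenoproteins with selenocysteine insertion, and sources of peroxide and superoxide. Of their 114 genes, edgeR's quasi-likelihood test called 0 of 75 in RNA, 0 of 96 in footprints and 0 of 75 in TE, and DESeq2 called 0 in each. At an unadjusted p below 0.05 stood 0 in RNA and 2 in footprints, Ggct, which splits gamma-glutamyl dipeptides, with a log2 fold change of -0.59 (SE 0.26), and Txndc17, a thioredoxin-related protein, with -0.55 (SE 0.24). In TE it was 1 gene, Ggct again, with -0.65 (SE 0.29). These are 2.08% of the listed genes in footprints and 1.33% in TE, below the 5.96% and 3.73% of all genes. By the fit, 40 of the 96 listed genes were higher in KO footprints and 32 of 75 in RNA, where 50.2% and 49.1% of all genes were. Footprint medians of the 7 lists lay between -0.16, for cysteine and glutathione turnover, and 0.05, for Nrf2 control. The turnover list had the most uneven tally, 2 higher and 11 lower in footprints, beside 4 higher and 6 lower in RNA with a median of -0.01.

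The tissue label was read against markers. The 8 cardiomyocyte markers summed to between 44732 and 61370 CPM of RNA, and macrophage markers to between 747.7 and 938 CPM of footprints in WT and between 782 and 867 in KO. In RNA the macrophage markers summed to between 169.6 and 189.9 CPM in WT and between 146.6 and 168.0 in KO. These RNA sums did not overlap between the genotypes, and their part in the members' values was not tested. Atrial markers ranged from 1721 to 2683 CPM of RNA in WT and from 2095 to 4179.9 in KO. Neither edgeR nor DESeq2 called a marker gene, and 3 of the 5 atrial markers had an unadjusted p below 0.05 in RNA, where 2.54% of all genes did, by edgeR's quasi-likelihood test. In RNA 1 of the 5 smooth muscle and pericyte markers was at that level too. In footprints it was 2 of the 5 atrial and 2 of the 8 cardiomyocyte markers, against 5.96% of all genes. So were 1 of the 6 fibroblast markers, 1 of the 5 smooth muscle and pericyte markers and the 1 kidney marker tested. Adipocyte markers summed to 277 CPM of RNA in WT 2 and 221 in KO 2, and to between 49.5 and 86.9 in the other 4 RNA libraries; their part in the members' values was not tested. Kidney markers, read because plasma Gpx3 comes mainly from kidney, had 4 of 6 genes at 0 in RNA, with a sum of at most 0.287 CPM. In footprints 3 of the 6 were at 0 and the sum was 16.3 to 121 CPM in WT, highest in WT 1, and at most 27.8 CPM in KO, while Gpx3 footprints of WT 1 were 175 CPM, within the range of the other libraries.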

How the data were processed

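Raw counts, whole numbers per transcript name, were deposited by the authors for 12 libraries. Adapters were handled with cutadapt 1.18 and Bowtie2 2.4.2 was used, per the submitters' processing notes; the counting program, build, counted region, strand use and treatment of reads matching several genes are not given in the sources used here. A total of 21428 names (98.89%), all 55 members included, matched GENCODE M21 (GRCm38). Members and lists were chosen with earlier results of these data known. Fits used edgeR 4.0.16 (filterByExpr with a minimum count of 10, TMM, quasi-likelihood F test) in R 4.3.3, on 6 libraries for RNA and for footprints and on all 12, with the assay by genotype interaction, for TE. P-values were adjusted by Benjamini-Hochberg over all genes tested (8379, 11153 and 8044), with a threshold of 0.05. CPM used TMM-scaled libraries, with mitochondrial genes included. Standard errors come from the F statistic and the fold change. On simulated counts with 200 changed genes, the RNA, footprint and TE tests called 24, 21 and 10 of 50 genes changed 2-fold. They called 3, 8 and 1 of 50 changed 1.5-fold, and also 12, 11 and 7 unchanged genes. When no gene was changed, they called 0, 0 and 1 gene. The simulated libraries were drawn without the split seen in RNA. Library values are given for members among the 15 highest per kilobase in either assay, with an unadjusted p below 0.05, with groups that did not overlap, or with the extreme ratios. Gpx8, Txnrd1, Gclc, Gclm, Gss, Nqo1, Hmox1 and Srxn1 fall outside this rule and were named for their role, with their values known. Alternatives were median-of-ratios scaling, DESeq2 1.42.0, other filters, removal of mitochondrial and the 10 highest genes, a replicate block, all 12 libraries in 1 fit, leaving out each replicate, and RNA per kilobase of coding sequence. The factor for the RNA split and the leave-outs of level ratios between genes were chosen after seeing the data.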

Additional observations from a re-analysis of the deposited data

How the results depend on the processing

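The number of members called was 0 in RNA, footprints and TE under every alternative run, with 0 to 7 members at an unadjusted p below 0.05 in RNA, 0 to 2 in footprints and 0 to 5 in TE. The highest of these came with the factor for the library split in RNA and without WT 3 in TE, where 6.04% and 9.19% of all genes were at that level. Over all genes, the number called in RNA was 1, 4 with no filter and 6 with the factor for the library split. In footprints it was 1, 5 with DESeq2, 60 with no filter and 4 with the replicate block, and in TE 0 and 1 with DESeq2. Leaving out each replicate in turn gave 1 to 2 genes called in footprints, 1 in RNA and 0 in TE. The cause of these differences was not tested. Across those same leave-outs the member median ranged from -0.04 to 0.12 in RNA, from -0.02 to 0.04 in footprints and from -0.08 to 0.09 in TE. All 116 fold changes of the 9 named results kept their direction and their side of the threshold. This is no independent support. The results were picked from these same data for an unadjusted p below 0.05 or for groups that did not overlap. Where groups do not overlap, leaving out a library can hardly turn the direction. Without single libraries, RNA log2 fold changes ranged from 0.45 (without KO 3) to 1.20 (without WT 3) for Gpx3 and from 0.91 (without WT 1) to 1.65 (without WT 3) for Gsr. With RNA per kilobase of coding sequence, the log2 ratio above the median gene moved from 2.41 to 0.22 for Sod2 and from 4.96 to 3.60 for Sod3. WT and KO libraries with the same number come from different animals and share only a number: their deviations correlated at -0.28, 0.45 and 0.48 in RNA and 0.045, 0.010 and -0.014 in footprints. RNA and footprint libraries of the same number correlated at 0.086, 0.15 and 0.075 in WT and at 0.11, 0.11 and 0.13 in KO, and each correlated best with its own number, a hint from the data only. In TE the block treated them as 1 heart, which no label states, and the replicate block called 1 gene in RNA, 4 in footprints and 0 in TE, no member among them. RNA of Gsr rested on 3 to 21 counts per library. Intervals cover counting error and the spread between libraries only.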
